A study of Mus musculus with 4 samples.

Results

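The 9 genes described here encode chemokine receptors of T cells, Ccr2, Ccr4, Ccr6, Ccr7, Ccr8, Ccr9, Cxcr3, Cxcr4 and Cxcr6. They were taken by symbol from a table of 18560 genes, and all 9 were in it. The table came from RNA-seq of 4 libraries made from mouse CD4+ T cells after activation, 2 of wild type (replicates 1 and 6) and 2 of cells labelled Setd2-CD4 cre (replicates 9 and 12), called knockout below. Setd2 places trimethylation on lysine 36 of histone H3, and a Cre driven by Cd4 acts in T cells from the thymic stage at which that gene turns on, so CD8 T cells of such mice recombine too. Both groups were C57BL/6 spleen cells, naive when isolated and stimulated through CD3 and CD28. They are labelled Th0, the usual name for activated helper cells not steered to an effector type. Stimulation lasted 2 days by the series text, 3 days by the treatment labels, and the titles carry the number 48. No label gives the age of the mice, the floxed allele, whether the wild type cells carried a Cre, or whether each replicate was its own animal. The p-values therefore rest on a spread between libraries that may be technical only.

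Chemokine receptors are 7-pass membrane proteins that couple to inhibitory G proteins and steer cells along gradients of small secreted proteins, the chemokines. Naive T cells carry CCR7, which brings them into lymph nodes along its ligands CCL19 and CCL21. After activation, helper cells take up other receptors that fit their type, such as CXCR3 on Th1 cells, CCR4 and CCR8 on Th2 and regulatory T cells, and CCR6 on Th17 cells. CCR9 directs cells to the small intestine, CXCR6 to tissues that carry CXCL16, CCR2 to inflamed sites, and CXCR4 to sources of CXCL12 such as bone marrow.

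Total counts ran from 17284613 to 20418766 per library. Setd2 stood at 157 and 174 CPM (counts scaled to library size, with TMM factors) in the wild type libraries versus 127 and 113 CPM in the knockout (edgeR adjusted p 0.421), a gene-level value that includes exons outside any deletion and so does not check the labels. Its log2 fold change, knockout over wild type, was -0.47 (SE 0.21), and all tested genes over 8 kb, a class that holds Setd2, had a median of -0.48. The T cell markers Cd3e and Cd4 were detected in each library, Cd4 with 464 and 575 CPM in the wild type libraries versus 404 and 445 CPM in the knockout. Markers of other cells were present too. The 2 CD8 genes summed to 260 and 330 CPM in the wild type libraries versus 432 and 323 CPM in the knockout, which overlapped. Of these genes, Cd8b1 lay higher in both knockout libraries and Cd8a overlapped between groups. The part of the CD8 genes in the receptor values was not tested. All 5 B cell genes were measured, summing to between 179 and 336 CPM. The 6 monocyte and macrophage genes summed to at most 8.80 CPM, the 6 dendritic cell genes to at most 20.4 CPM, the 4 NK cell genes to at most 7.43 CPM, the 4 neutrophil genes to at most 7.95 CPM, the 4 mast cell and basophil genes to at most 3.54 CPM and the 6 erythroid genes to at most 20.2 CPM. Of 4 gamma-delta T cell markers the table held Sox13, at most 0.62 CPM. In bulk RNA, fewer cells of a type and less RNA per cell cannot be told apart.

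Per gene length, the receptors spanned about 3 orders of magnitude. The deposited expression value, taken as FPKM (reads scaled by gene length and library size), was 133 and 290 for Ccr7 in wild type and 117 and 92.9 in knockout libraries, the highest of the 9 on average. Ccr8 followed with 67.8 and 34.4 FPKM in wild type and 39.0 and 94.4 FPKM in knockout libraries, and Cxcr4 with 43.8 and 55.0 FPKM against 46.8 and 32.1 FPKM. Ccr7 was the top receptor in wild type replicates 1 and 6 and knockout replicate 9, but in knockout replicate 12 Ccr8 ranked 1 and Ccr7 ranked 2. Ccr7 made up 42.2% and 66.3% of the summed FPKM of the 9 receptors in wild type and 46.7% and 33.0% in knockout libraries. The ranges over the 4 libraries overlapped between each neighbour in the order Ccr7, Ccr8, Cxcr4, Ccr4, Cxcr3 and Cxcr6, although Cxcr4 was above Ccr4 in 4 of 4 libraries and the ranges of Ccr7 and Cxcr4 did not overlap. Cxcr6, at 10.5 to 16.8 FPKM, did not overlap with the next, Ccr2, at 2.25 to 5.35 FPKM. Ccr2 overlapped with Ccr6, at 1.91 to 3.34 FPKM, and Ccr9 was lowest in all 4 libraries at 0.07 to 0.22 FPKM.

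**Figure D1:**
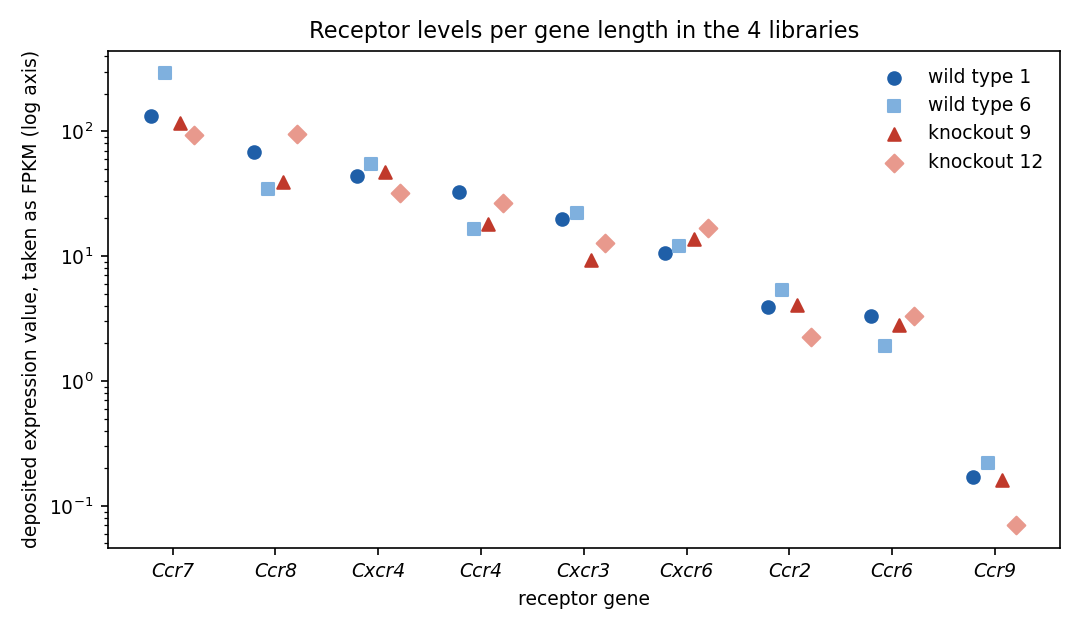
Deposited expression value taken as FPKM (vertical log axis) of the 9 receptor genes (horizontal axis), each point 1 library. Ccr7 was highest on average, with wild type replicate 6 at 290, and Ccr9 lay at or under 0.22 in every library.

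Between the genotypes, Cxcr3, Ccr7 and the barely detected Ccr9 lay lower and Cxcr6 lay higher in both knockout libraries than in both wild type libraries, and no receptor passed the test over all genes. Of the 9 receptors, all of which passed the filter on low counts, edgeR's quasi-likelihood test called 0 at an adjusted p under 0.05, against 1 of 12816 genes (0.0078%). DESeq2 also called 0 of the 9, where it called 1.44% of all genes, but it gave no adjusted p for Ccr9, which therefore could not be called. At an unadjusted edgeR p under 0.05, 2 receptors were lower (5.73% of all genes) and 0 higher (6.23% of all genes). For 3 of 9 receptors (24.3% of all genes) the knockout libraries were both under the wild type libraries, for 1 of 9 (25.4% of all genes) they were both over them, and for 5 the groups overlapped. The median log2 fold change, knockout over wild type, was -0.26 over the 9 and -0.002 over all genes tested. For 2 of the 9, Cxcr3 and Cxcr6, the difference between groups exceeded the gap between replicates in both groups, as it did for 31.8% of all genes. Of 6 T cell markers, 5 also lay lower in both knockout libraries (24.3% of all genes), and the median log2 fold change of the 6 was -0.37. For these markers edgeR called 0, and 1 was lower at an unadjusted edgeR p under 0.05 (5.73% of all genes). The part of the T cell markers in the receptor values was not tested.

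**Figure D2:**
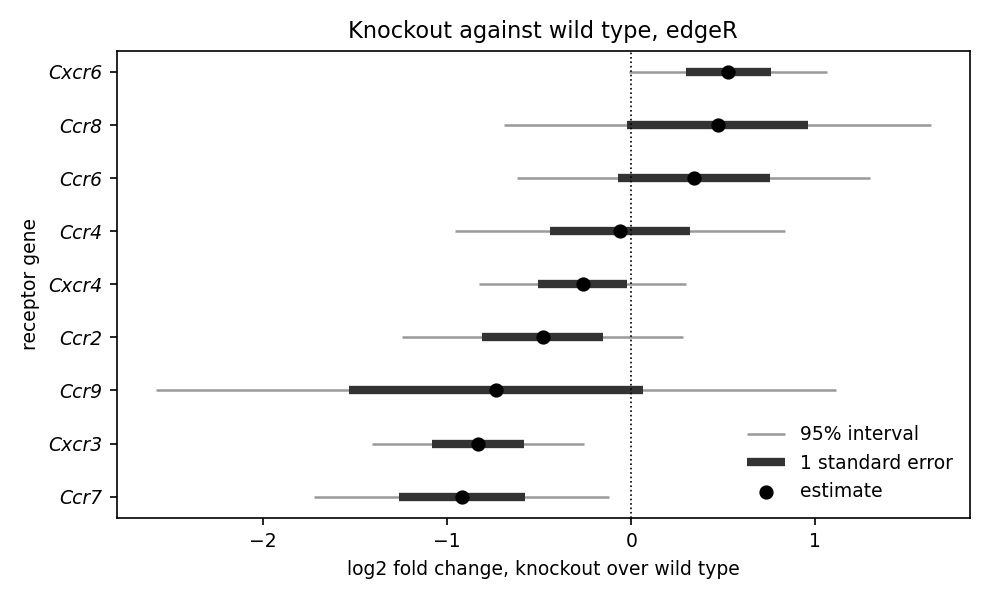
Log2 fold change, knockout over wild type, of the 9 receptors from edgeR (horizontal axis), with points for estimates, thick bars for 1 standard error and thin bars for the 95% interval. The intervals of Cxcr3 (-1.41 to -0.25) and Ccr7 (-1.72 to -0.12) lie below 0 before adjustment over all genes, and the other 7 include 0.

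Cxcr3 (gene 12766, GRCm38.p6 chromosome X, 101731535 to 101734147) encodes the receptor for the interferon-induced chemokines CXCL9 and CXCL10. It stood at 31.7 and 33.6 CPM in wild type replicates 1 and 6 and at 15.0 and 21.6 CPM in knockout replicates 9 and 12. The wild type libraries lay close together and both knockout libraries were lower, knockout replicate 9 the lowest. The means were 32.7 ± 1.30 and 18.3 ± 4.67 CPM (SD, n = 2 per group), 1.78-fold lower in knockout cells. The log2 fold change was -0.83 (SE 0.25), edgeR p 0.0108 and adjusted p 0.386, the smallest p among the 9. With each library left out in turn it stayed between -1.12 and -0.60. With a trend on gene length removed from each library it was -1.04, with an edgeR adjusted p of 0.272.

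Ccr7 (gene 12775, chromosome 11, 99144199 to 99155077) gave 262 and 544 CPM in the wild type libraries versus 232 and 193 CPM in the knockout. Wild type replicate 6 was far above the other 3 libraries, while wild type replicate 1 was close to the knockout libraries. The means were 403 ± 199 and 213 ± 27.3 CPM (SD, n = 2 per group). On the log2 scale the difference was -0.92 (SE 0.34), edgeR p 0.0294 and adjusted p 0.413. That value turned on the wild type libraries. Without wild type replicate 6 it was -0.30 (edgeR adjusted p 0.9998), and without wild type replicate 1 it was -1.34 with an edgeR adjusted p of 0.0317, a call in a fit in which the lone wild type library is assumed to vary like the knockout libraries.

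Cxcr6 (gene 80901, chromosome 9, 123806477 to 123811754), the receptor for the membrane-bound and shed chemokine CXCL16, gave 19.8 and 21.5 CPM in the wild type libraries versus 26.0 and 33.6 CPM in the knockout. The wild type libraries were again close together, and knockout replicate 12 was the highest. The means were 20.7 ± 1.17 and 29.8 ± 5.35 CPM (SD, n = 2 per group). The log2 difference was 0.53 (SE 0.23), edgeR p 0.0535 and adjusted p 0.417. It kept its sign with each library left out, from 0.33 to 0.69, and was 0.37 with the length trend removed. Cxcr6 lies inside the span of Fyco1, which encodes an adaptor of vesicle transport, and the strandedness of the libraries is not given in the sources used here. Fyco1 gave 46.7 and 53.3 CPM in the wild type libraries versus 50.4 and 18.2 CPM in the knockout, lowest in the library where Cxcr6 was highest.

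Cxcr4 and Ccr2 lay lower on average in knockout libraries with overlapping groups. Cxcr4 (gene 12767, chromosome 1, 128588199 to 128592299) gave 78.0 and 92.7 CPM in the wild type libraries versus 82.7 and 59.5 CPM in the knockout. Knockout replicate 9 lay between the wild type libraries. The log2 fold change was -0.26 (SE 0.24, edgeR adjusted p 0.627), from -0.53 without knockout replicate 9 to -0.05 without knockout replicate 12, and the 95% interval of the knockout to wild type ratio ran from 0.564 to 1.23. Ccr2 (gene 12772, chromosome 9, 124101918 to 124109140), also a monocyte gene, gave 14.5 and 18.6 CPM in the wild type libraries versus 15.0 and 8.67 CPM in the knockout. Its log2 fold change was -0.48 (SE 0.33, edgeR adjusted p 0.519), from -0.94 without knockout replicate 9 to -0.14 without knockout replicate 12, and only knockout replicate 12 lay outside the wild type range. The monocyte and macrophage markers summed to 6.87 and 8.80 CPM in the wild type libraries versus 4.70 and 5.42 CPM in the knockout, with 6 of 6 in the table and none at 0 in all libraries. Itgam made up most of that difference, with 5.29 and 5.36 CPM versus 2.84 and 2.69 CPM, and the other 5 summed to 1.58 and 3.44 CPM versus 1.86 and 2.74 CPM, which overlapped. Their part in the Ccr2 values was not tested. The estimated counts of Ccr2, like those of Ccr4, were not whole in any library, as happens where RSEM shares reads between sequences, so the levels of both genes carry that uncertainty.

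Ccr4 and Ccr8, and at lower counts and less clearly Ccr6, had wild type replicate 1 and knockout replicate 12 as their higher libraries, a split within each genotype. The libraries as a whole were split the same way. Genes with a count above 0 numbered 15372 and 15351 in wild type replicate 1 and knockout replicate 12. They numbered 15883 and 15890 in wild type replicate 6 and knockout replicate 9, which had the smaller total counts. The part of this difference in the receptor values was not tested. Ccr4 (gene 12773, chromosome 9, 114490316 to 114505476), the receptor for CCL17 and CCL22, gave 91.1 and 43.5 CPM in the wild type libraries versus 50.1 and 78.9 CPM in the knockout. Wild type replicate 1 and knockout replicate 12 were high, and wild type replicate 6 and knockout replicate 9 were low. Its log2 fold change was -0.06 (SE 0.38, edgeR adjusted p 0.953), the smallest in size of the 9, and the 95% interval of the knockout to wild type ratio ran from 0.514 to 1.79. Ccr8 (gene 12776, chromosome 9, 120092133 to 120094906), the receptor for CCL1 and CCL8, gave 77.3 and 37.2 CPM in the wild type libraries versus 44.6 and 114 CPM in the knockout. The same libraries were high and low as for Ccr4, and knockout replicate 12 was 1.35 log2 units above knockout replicate 9. Ccr8 differed by 0.47 on the log2 scale (SE 0.49, edgeR adjusted p 0.672). The sign turned for Ccr4 without wild type replicate 1 (0.58) or knockout replicate 9 (0.22), and for Ccr8 without knockout replicate 12 (-0.36).

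Gata3, the Th2 factor, had the same libraries high and low, with 130 and 85.1 CPM in the wild type libraries versus 93.5 and 190 CPM in the knockout (edgeR adjusted p 0.632). So had the summed B cell markers, with 262 and 179 CPM in the wild type libraries versus 192 and 336 CPM in the knockout. All 5 B cell markers were detected. In 4 of them the higher libraries were wild type replicate 1 and knockout replicate 12, while Pax5 lay lower in both knockout libraries, with 52.0 and 40.1 CPM versus 33.1 and 33.0 CPM. Their part in the receptor values was not tested. Ccr6, Ccr7 and Cxcr4 are also expressed by B cells.

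**Figure D3:**
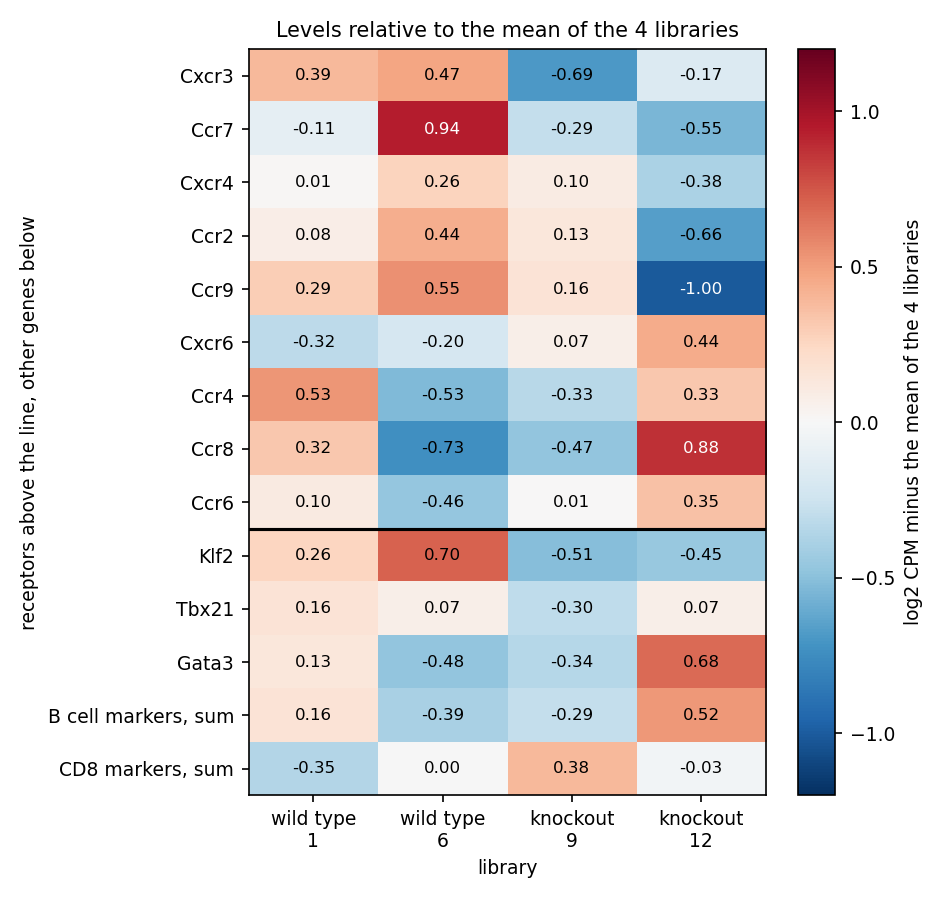
Log2 CPM minus the mean of the 4 libraries for the 9 receptors (rows above the line), 3 transcription factor genes and 2 summed marker lists (rows below), with 1 column per library. Ccr4, Ccr8, Gata3 and the summed B cell markers were high in wild type replicate 1 and knockout replicate 12 and low in the other 2 libraries, while Cxcr3 and Klf2 were low in both knockout libraries.

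Ccr6 and Ccr9 were measured at low depth. Ccr6 (gene 12458, chromosome 17, 8236041 to 8258519), the receptor for CCL20, had 94 and 64 counts in wild type and 77 and 110 counts in knockout libraries, or 4.78 and 3.24 against 4.47 and 5.68 CPM. Wild type replicate 1 and knockout replicate 12 were highest, as for Ccr4 and Ccr8, but less clearly so. By counting error alone, the 95% intervals of wild type replicate 1 (3.86 to 5.85 CPM) and knockout replicate 9 (3.53 to 5.58 CPM) overlapped. The Ccr6 difference was 0.34 on the log2 scale (SE 0.41, edgeR adjusted p 0.719), with a 95% interval of the ratio from 0.650 to 2.46. Leaving out wild type replicate 6 took it to 0.08, and leaving out wild type replicate 1 to 0.66. Ccr9 (gene 12769, chromosome 9, 123767211 to 123783457) had between 6 and 18.02 estimated counts per library, or 0.763 and 0.910 CPM in the wild type libraries versus 0.696 and 0.310 CPM in the knockout. The exact Poisson 95% intervals, which cover counting error only, ran from 0.427 to 1.26 CPM in wild type replicate 1 and from 0.114 to 0.674 CPM in knockout replicate 12, so these intervals overlapped although both knockout values lay below both wild type values. The log2 fold change of -0.74 (SE 0.80, edgeR adjusted p 0.682) was within its error and ran from -1.43 without knockout replicate 9 to -0.26 without knockout replicate 12. A difference was not detectable at this depth.

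**Figure D4:**
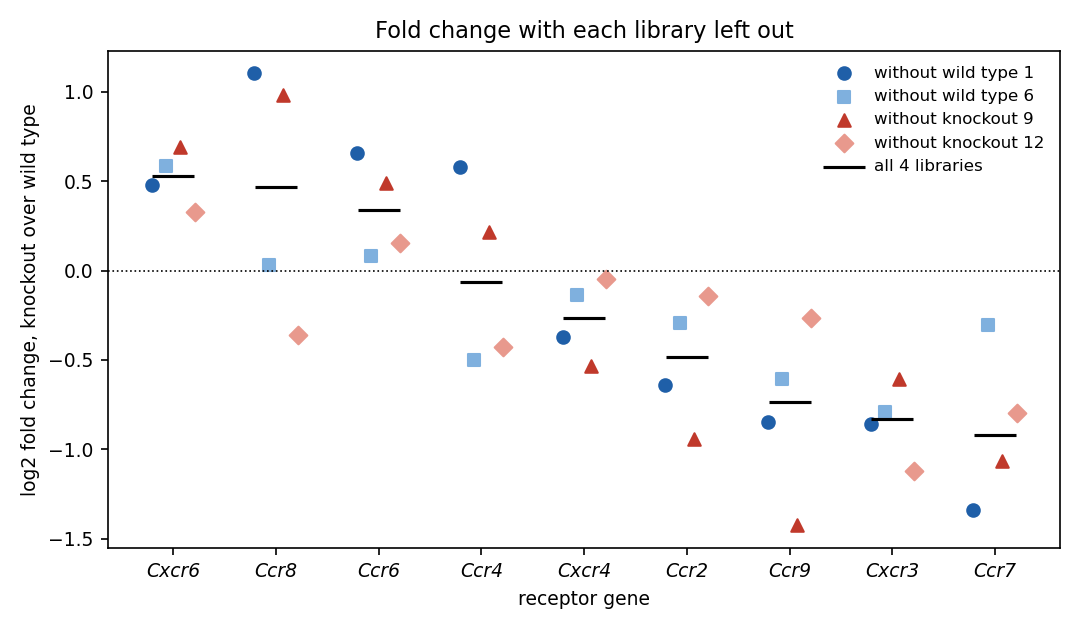
Log2 fold change, knockout over wild type (vertical axis), of each receptor with all 4 libraries (dash) and with each library left out (points). Cxcr3 and Cxcr6 keep to 1 side of 0 within -1.12 to -0.60 and 0.33 to 0.69, Ccr7 runs from -1.34 to -0.30, and Ccr4 and Ccr8 cross 0.

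The promoters of Cxcr3, Cxcr6, Ccr4 and Ccr8 are shown because these genes carry patterns described above. Cxcr3 lay lower and Cxcr6 higher in both knockout libraries, and Ccr4 and Ccr8 split the libraries within genotypes. The barely detected Ccr9 also lay lower in both knockout libraries, and its promoter is not shown. RefSeq promoter sequences of GRCm38.p6 matched 8 of the 9 receptors by symbol, all but Ccr7. Each is the 250 bases before an annotated transcript start, 5′ to 3′ on the gene's strand, with capitals for matches on either strand to a KLF word (CACCC), a T-box word (GTGTGA), a RUNX word (TGTGGT) or a GATA word (GATAA). The Ccr4 window lies inside the annotated span of its gene (114490316 to 114505476), before an internal start. The Cxcr3, Cxcr6 and Ccr8 windows lie next to the spans of their genes.
Cxcr3, chrX:101734148-101734397, minus strand: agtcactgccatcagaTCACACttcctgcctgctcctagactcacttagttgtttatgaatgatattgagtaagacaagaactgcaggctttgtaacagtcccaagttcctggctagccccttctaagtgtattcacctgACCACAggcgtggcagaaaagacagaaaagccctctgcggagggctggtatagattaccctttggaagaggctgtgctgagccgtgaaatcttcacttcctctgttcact
Cxcr6, chr9:123806227-123806476, plus strand: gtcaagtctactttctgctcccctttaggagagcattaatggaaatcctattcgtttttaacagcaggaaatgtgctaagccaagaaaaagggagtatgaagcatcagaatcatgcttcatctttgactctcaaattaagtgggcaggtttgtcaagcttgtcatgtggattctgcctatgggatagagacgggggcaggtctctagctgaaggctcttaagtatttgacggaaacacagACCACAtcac
Ccr4, chr9:114496545-114496794, minus strand: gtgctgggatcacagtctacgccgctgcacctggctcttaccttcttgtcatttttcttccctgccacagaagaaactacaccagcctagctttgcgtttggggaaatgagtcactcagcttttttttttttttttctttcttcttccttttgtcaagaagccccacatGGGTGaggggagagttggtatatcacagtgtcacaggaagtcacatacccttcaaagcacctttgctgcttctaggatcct
Ccr8, chr9:120091883-120092132, plus strand: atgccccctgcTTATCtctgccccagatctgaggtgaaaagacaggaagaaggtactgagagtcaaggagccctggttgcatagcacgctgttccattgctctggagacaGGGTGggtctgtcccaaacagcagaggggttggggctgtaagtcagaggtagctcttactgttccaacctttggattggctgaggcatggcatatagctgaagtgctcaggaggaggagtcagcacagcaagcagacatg
Of the 4 promoters shown, the RUNX word was in the Cxcr3 and Cxcr6 promoters and in 14.05% of all 32851 promoter windows of this length, and the T-box word was in the Cxcr3 promoter and in 12.3% of all windows. The KLF word was in the Ccr4 and Ccr8 promoters and in 52.0% of all windows, and the GATA word was in the Ccr8 promoter and in 22.6%. The KLF and RUNX words can overlap by sharing bases, which they did not do in these 4 sequences. Over the 9 windows of the 8 matched receptors, the KLF word was in 4, the GATA word in 4, the RUNX word in 2 and the T-box word in 1. The Ccr9 window held 1 KLF match and no match to the other words. A match is a description of the letters and not a site.

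In genome position, 5 of the 9 receptors lie on chromosome 9, and Ccr9, Cxcr6 and Ccr2 lie in 1 cluster of receptor genes whose first and last starts are 334707 bases apart. Neighbours there did not share a direction. From Ccr9 (-0.74) the log2 fold changes were -0.54 (SE 0.43) for Fyco1, 0.53 for Cxcr6, -0.12 (SE 0.51) for Xcr1, the receptor of cross-presenting dendritic cells, 0.25 (SE 0.40) for Ccr1, 0.73 (SE 0.77) for Ccr3, the eotaxin receptor, and -0.48 for Ccr2. Ccr1l1 had under 0.12 CPM in each library and was not tested. In coding structure, Ccr2, Ccr4, Ccr6, Ccr8 and Cxcr6 have 1 coding exon in the GENCODE basic transcripts, Cxcr3 and Cxcr4 have 2 and Ccr7 has 3.

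Of 15 other chemokine receptor genes, 9 were tested, 3 with a positive and 6 with a negative log2 fold change (median -0.13). edgeR called 0, as did DESeq2, which gave no adjusted p for Ccr3 and Cx3cr1. An unadjusted edgeR p under 0.05 was met by 0 higher (6.23% of all genes) and 1 lower (5.73% of all genes). The lower was Cxcr1, a neutrophil receptor, with 1.17 and 1.82 CPM in the wild type libraries versus 0.464 and 0.103 CPM in the knockout, or between 2 and 36 counts per library. Cx3cr1, the fractalkine receptor, gave 1.22 and 1.21 CPM versus 0.580 and 0.155 CPM (edgeR adjusted p 0.43). Cxcr5, which brings follicular helper and B cells to follicles, had the highest mean FPKM of those named, with 73.1 and 58.7 CPM versus 39.9 and 98.7 CPM (log2 0.07, SE 0.40). As for Ccr8, wild type replicate 1 and knockout replicate 12 were its higher libraries.

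Of 17 genes for ligands of the 9 receptors, 16 were in the table and 6 were tested, with 3 positive and 3 negative log2 fold changes (median 0.03). edgeR and DESeq2 called 0. At an unadjusted edgeR p under 0.05, 0 were higher (6.23% of all genes) and 1 lower (5.73% of all genes). The lower was Cxcl16, the ligand of CXCR6, with 5.65 and 9.51 CPM in the wild type libraries versus 3.83 and 3.20 CPM in the knockout (log2 -1.11, SE 0.41, edgeR adjusted p 0.413), opposite in sign to Cxcr6. Mif, which binds CXCR4 and CD74, was the most abundant, with 607 and 339 CPM versus 652 and 851 CPM (edgeR adjusted p 0.422). Ccl25, the ligand of CCR9, gave 1.07 and 0.961 CPM versus 2.44 and 2.32 CPM (edgeR adjusted p 0.423). Ccl20, the ligand of CCR6, was singled out after its values were seen. It had 0 counts in both wild type libraries, which allows up to 0.153 and 0.152 CPM from counting error (3 counts), and 8 and 35 counts in knockout replicates 9 and 12. It did not pass the filter on low counts and was not tested.

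Of 36 genes of receptor signalling and migration, 35 were tested, 18 positive and 17 negative with a median log2 fold change of 0.003. edgeR and DESeq2 called 0. At an unadjusted edgeR p under 0.05, 1 was higher (6.23% of all genes) and 2 were lower (5.73% of all genes). Rgs16, which speeds the shut-off of G proteins, gave 14.2 and 16.1 CPM in the wild type libraries versus 32.1 and 23.4 CPM in the knockout (log2 0.87, SE 0.25, edgeR adjusted p 0.384). Dock2, the exchange factor that activates Rac in migrating lymphocytes, gave 414 and 482 CPM versus 294 and 289 CPM (log2 -0.62, SE 0.21, edgeR adjusted p 0.412). Plcb2, a phospholipase activated by G proteins, gave 49.2 and 64.8 CPM versus 36.4 and 37.5 CPM (log2 -0.63, SE 0.23). All tested genes of 4 to 8 kb, a class that holds Dock2 and Plcb2, had a median log2 fold change of -0.24. For Rgs16, Dock2 and Plcb2, named for their small p, the groups did not overlap. Of the 35 tested, 11 lay higher in both knockout libraries (25.4% of all genes) and 11 lower (24.3% of all genes). The inhibitory G protein gene Gnai2 differed by less than 2 SE, with 729 and 650 CPM versus 738 and 870 CPM (log2 0.22, SE 0.21), and the actin regulator Coro1a, the most abundant per length, had a log2 fold change of 0.05 (SE 0.23).

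Of 13 genes for transcription factors known to act on these receptor genes, all were tested, 5 positive and 8 negative with a median of -0.17. DESeq2 called 2 of the 13 (1.44% of all genes) and edgeR 0. An unadjusted edgeR p under 0.05 was met by 2 higher (6.23% of all genes) and 2 lower (5.73% of all genes). The list was chosen with earlier results known, so these counts are a description only. Klf2, a factor of quiescent T cells, gave 116 and 158 CPM in the wild type libraries versus 68.2 and 70.9 CPM in the knockout (log2 -0.98, SE 0.23), with an adjusted p of 0.313 in edgeR and 0.0174 in DESeq2. Like Ccr7, it was highest in wild type replicate 6. Eomes, a T-box factor, gave 10.02 and 10.9 CPM versus 28.7 and 22.1 CPM (log2 1.28, SE 0.25), with an adjusted p of 0.261 in edgeR and 0.0132 in DESeq2. Tbx21, the T-box factor of Th1 cells, overlapped between groups, with 174 and 163 CPM versus 126 and 163 CPM (log2 -0.22, SE 0.22). Runx1 gave 45.2 and 41.4 CPM versus 24.7 and 27.7 CPM (edgeR adjusted p 0.385). Hif1a, the most abundant per length, had a log2 fold change of -0.49 (SE 0.24). Runx1 and Hif1a belong to the length class of 4 to 8 kb, in which all tested genes had a median log2 fold change of -0.24. That median was 0.22 for genes of 1 to 2 kb, which include Klf2, and 0 for genes of 2 to 4 kb, which include Eomes. Tbx21, Gata3 and Gnai2 were picked for mention with their values known.

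By Euclidean distance of centred log2 CPM over the 4 libraries, among 9910 genes with a mean of at least 5 CPM, the genes most like Cxcr3 were Pglyrp1 (distance 0.0477), Igsf23 (0.126) and Pglyrp2 (0.128). Pglyrp1 and Pglyrp2 encode peptidoglycan recognition proteins. The genes most like Ccr7 were Smad3 (0.0877), a transducer of TGF-beta signals, Aff3 (0.106) and Rnf170 (0.111). Among the receptors themselves, Ccr2 and Cxcr4 were closest (0.341), both with knockout replicate 12 lowest and wild type replicate 6 highest. With 4 libraries these distances are a description only.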

How the data were processed

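Gene-level RNA-seq values of 4 libraries were used. Per the submitters' processing notes the authors used Bowtie2 and RSEM with the builds GRCm38.p6 and mm10, and for versions, annotation and strandedness nothing is given in the sources used here. Values are, as deposited by the authors, an expected count per gene and library, in which RSEM shares reads that match several genes, and an expression value whose header states no unit and which was taken as FPKM made by the authors, since it scales with counts over length. Also deposited were 4 columns of group averages, left out here. RefSeq coordinates of GRCm38.p6 matched 18420 gene IDs (99.2%).

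Counts were rounded, filtered with filterByExpr (minimum count 10, leaving 12816 genes), scaled by TMM and compared by the two-sided quasi-likelihood test of edgeR 4.0.16 (robust, limma 3.58.1, R 4.3.3) with Benjamini-Hochberg adjustment over all genes tested and a threshold of 0.05. DESeq2 1.42.0 and limma-voom were alternatives. The script was tested on simulated data. Standard errors come from the F statistic. An exact permutation test of 2 against 2 libraries cannot go below a p of 0.333 and was not used. Replicate numbers are not shared between groups.

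The receptors and lists were chosen with earlier results of these data known. Named were the 9 receptors and, of each list, called genes, the most abundant per length and the 3 of smallest p. 1 gene that this rule selects is not reported here. The chromosome 9 window was reset to run from Ccr9 to Ccr2 after the table was seen, because Ccrl2, its planned end, starts at 111054834, on the far side of Ccr9. The Cxcr6, Ccr6 and Ccr9 spans overlap other annotated genes.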

Additional observations from a re-analysis of the deposited data

How the results depend on the processing

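Over 14 alternative settings (13 for Ccr9, which a minimum count of 30 removes), 7 of the 9 receptors kept the direction of their fold change, though Cxcr4, Ccr2, Ccr6 and Ccr9 came near 0 in some. The exceptions were Ccr4, which ran from -0.501 to 0.578 with a library left out, at 0.218 without knockout replicate 9 and at 0.578 when wild type replicate 1 was left out, and Ccr8, which ran from -0.362 (knockout replicate 12 left out) to 1.10 (wild type replicate 1 left out). The count of receptors called was 0 in each setting except 1 (Ccr7) without wild type replicate 1, so with a library left out it ran from 0 to 1. The median over the 9 ran, with a library left out, from -0.532 (knockout replicate 9) to -0.265 (knockout replicate 12). It was -0.397 with the length trend removed, -0.340 with library size alone and -0.101 on log2(FPKM + 1). At a minimum count of 30, which leaves 8 receptors without Ccr9, the median was -0.168. Over all genes, the count called was 1 in edgeR, 81 with no filter on low counts, 185 in DESeq2, and, with a library left out, from 0 (knockout replicate 12) to 194 (wild type replicate 1). The causes were not tested. Log2 fold changes fell with gene length over all genes, from a median of 0.38 under 1 kb to -0.48 over 8 kb, and removing that trend took Ccr8 from 0.47 to 0.15 and Ccr6 from 0.34 to 0.15. No paired analysis was possible because the groups share no replicate number. Depth limits Ccr9, with 18.02 counts at most, and Ccr6. With 2 libraries a group, a p over the threshold does not show that a receptor's level was equal in both genotypes.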
